A study of Mus musculus with 23 samples.

Results

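Endothelial cells of the mouse lung were followed through the weeks in which alveoli form, by comparing their microRNAs at postnatal days 14 and 28 (P14, P28) with those at postnatal days 1 and 7 (P1, P7). The samples were picked by their labels, with earlier results of these data known. They are the CD31-sorted samples of these 4 ages, 7 of the 23 samples of the study and 7 of its 10 endothelial samples. The later arm has 4 samples, 2 of P14 and 2 of P28. The first-week arm has 3 samples, 1 of P1 and 2 of P7. All came from wild-type (WT) C57BL6 mice, no treatment is labelled, and CD31, an adhesion molecule of the endothelial surface, is named in the sample descriptions as the sorting marker. The other 16 samples, used here to estimate the spread and for comparison, are 3 endothelial samples from before birth (2 of embryonic day 16.5 and 1 of 18.5) and 13 samples of type II pneumocytes (AT2 cells) of the same 6 stages, from mice of the same strain and genotype. For every sample the labels cite an isolation protocol written for type II cells of adult mice, and they do not say whether animals were pooled or whether samples of 1 age came from separate animals. The p-values below thus reflect the spread from sample to sample, part or all of which may be technical.

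Alveolarization is the period after birth in which ridges called secondary septa grow into the air sacs and divide them, while the double capillary layer of the immature septum is remodelled into a single one. Endothelial cells line these capillaries, carry out gas exchange together with the thin epithelium, and send growth signals to the neighbouring epithelium. MicroRNAs are short RNAs that pair through a seed near their 5′ end with messenger RNAs and lower the amount of protein made from them. They were counted on a NanoString nCounter panel, in which a coloured barcode is counted for each captured molecule without amplification. In bulk samples such as these, fewer cells of a type and less RNA per cell cannot be told apart.

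The panel names each of its 602 microRNAs by an identifier that no table used here pairs with a name or a sequence, so at most 2 identifiers are given in each direction of a comparison. For the same reason the endothelial label could not be checked against named marker microRNAs. The deposited values are counts multiplied by 1 factor per sample, apart from low values that stand at 1 in some samples. The 7 samples held 113697 to 571706 recovered microRNA counts, and their factors ran from 0.394 in EC (endothelial cell) P1 replicate 1 to 3.86 in EC P28 replicate 1. A background limit was set in each sample at the mean plus 2 SD of 8 low control rows. In AT2 P28 replicate 1 that mean and the limit were both 1 count, so its control rows gave no spread. Scaled background averaged 8.93 in the first-week arm and 23.8 in the later arm, and the arms overlapped (exact permutation test, two-sided, p = 0.114). Of the 602 microRNAs, 302 were above the limit in at least 2 of the 23 samples and were tested, and 248 were above it in none.

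The lowest values also differed between the arms. The 248 microRNAs that were above background in no sample had a median log2 change of 1.06 from the first week to the later ages, although none of them was detected. Over the 302 tested microRNAs the median was 0.19, with 186 above 0, and over the 122 that were above the limit in all 7 samples it was 0.04. A rise of a microRNA that lies below its limit in the first week is therefore read here beside these values.

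Cell-type microRNAs set EC P14 replicate 2 apart. A set of 17 (AT2-high) exceeded endothelial levels at least 4-fold in AT2 cells and a set of 29 (EC-high) fell short of them at least 4-fold, in a fit of these data that left out 3 endothelial samples, EC P14 replicate 2, EC P28 replicate 2 and EC P1 replicate 1. The other 4 of the 7 samples helped to define the sets, so part of the contrast between them and the 3 left out is fixed by that choice, and the sums below are a description with no test. Summed over the AT2-high set, the signal of EC P14 replicate 2 was 12695. It was 6581 in EC P1 replicate 1, 6443 in EC P28 replicate 2, and 1203 to 3284 in the other 4 samples, against a median of 18986 and a minimum of 15459 in AT2 samples. The EC-high microRNAs summed to 54832 in EC P14 replicate 2 and to 96646 to 222106 in the other 6 samples. MIMAT0000138, the most abundant microRNA of all 10 endothelial samples, took 23.4% of the microRNA signal in EC P14 replicate 2 and 33.3% to 44.9% in the other 6. Across all tested microRNAs EC P14 replicate 2 correlated with EC P1 replicate 1 at r = 0.939 and with its closest AT2 sample at r = 0.932, values across microRNAs of 1 panel, which are not independent replicates. The 3 endothelial samples with the highest AT2-high sums are also the 3 of the 7 whose specimen numbers begin with 16, and the other 4 begin with 15. Main results are given with and without EC P14 replicate 2.

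**Figure D1:**
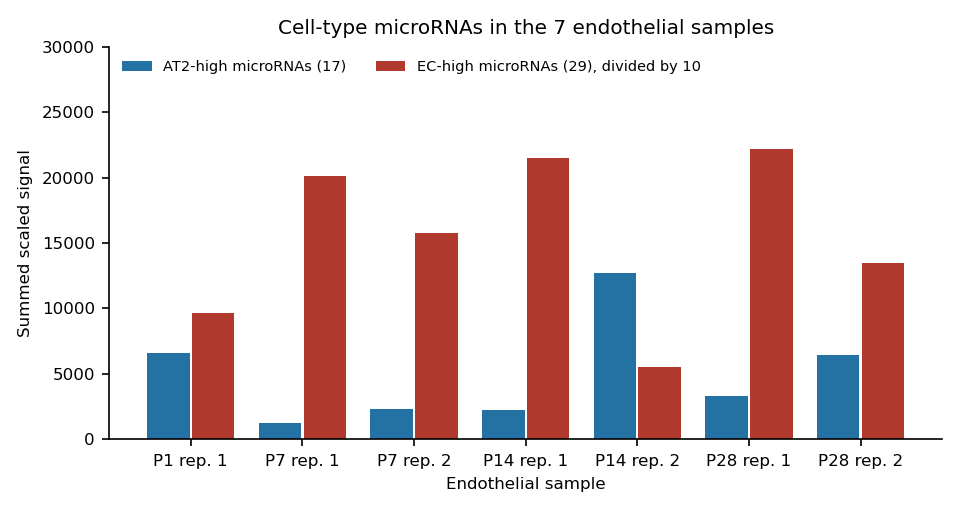
Bars give the summed scaled nCounter signal of the 17 AT2-high microRNAs (blue) and of the 29 EC-high microRNAs (red, divided by 10) in each of the 7 endothelial samples. EC P14 replicate 2 has the highest AT2-high sum, 12695, and the lowest EC-high sum, 54832.

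The first comparison asks which microRNAs of lung endothelial cells stand at another level at P14 and P28 than in the first postnatal week. From the first week to P14 and P28, 17 of 302 microRNAs changed (5.63% of those tested), 8 of them higher (2.65%) and 9 lower (2.98%), by limma on log2(value + 1) with Benjamini-Hochberg adjustment at 0.05. At an unadjusted p under 0.05 there were 70. These calls draw on the spread of all 23 samples and on the deposited scaling: 0 passed in a limma fit of the 7 samples alone (46 at an unadjusted p under 0.05), and 2, both lower, passed with values taken as shares of the microRNA total. The log2 changes of the 8 ran from 1.05 to 2.04 and those of the 9 from -1.13 to -2.75, so each of the 17 changed at least 2-fold on this scale. Of the 8 that rose, 7 were above background in all 4 later samples and 5 in all 7 samples, and 1 was above it in no sample of the 7. Of the 9 that fell, 8 were above background in all 3 first-week samples, 3 were still above it in all 4 later samples, and 1 in none of them.

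Of the rises, that of MIMAT0000535 was the largest. Its scaled signal was 414 at P1, 243 and 321 at P7, 399 and 1382 at P14 (replicates 1 and 2) and 2323 and 2307 at P28. EC P14 replicate 1 lay within the first-week range and the other 3 later samples above it. The means were 326 ± 85.7 in the first week and 1603 ± 915 later (SD, n = 3 and 4), and the log2 change was 2.04 ± 0.34 (SE; limma, adjusted p = 0.00174). Without EC P14 replicate 2 it was 2.01 ± 0.25 (limma, adjusted p = 0.000121). In the embryonic endothelial samples MIMAT0000535 lay lower still, between 33.3 and 103, below all 7 postnatal samples. The samples of embryonic day 16.5 were below their background limits, and that of day 18.5 stood at 103 with a limit of 95.1. AT2 cells had 847 to 1476 in the first week and 1536 to 4003 at P14 and P28. Their log2 change was 1.23 ± 0.30 (limma, adjusted p = 0.00472). The part of AT2 signal in the endothelial rise was not tested.

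MIMAT0000127 rose in a like way at a lower level. It stood at 208 at P1, 116 and 130 at P7, 154 and 460 at P14, and 822 and 1051 at P28. Again EC P14 replicate 1 was the later sample that lay among those of the first week. The log2 change was 1.76 ± 0.32 (limma, adjusted p = 0.00298), and 1.80 ± 0.25 without EC P14 replicate 2 (limma, adjusted p = 0.000268). All 7 samples were above the background limit for both microRNAs, and all their values exceed 95.1, the highest scaled limit of any of the 23 samples. MIMAT0000127 also rose in AT2 cells, from 359 to 494 in the first week to 631 to 2151 at P14 and P28. The log2 change there was 1.49 ± 0.28 (limma, adjusted p = 0.000801). For this microRNA too, the part of AT2 signal in the endothelial rise was not tested.

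MIMAT0004704 fell furthest. Its signal was 219 at P1, 233 and 178 at P7, 78.2 and 19.3 at P14, and 23.2 and 23.6 at P28. Each later sample was below each first-week sample, and 1 of the 4, EC P14 replicate 1, was above its background limit. The log2 change was -2.75 ± 0.46 (limma, adjusted p = 0.00174). With samples below their limit set to it, first-week endothelial cells had at least 4.58-fold more (ratio of geometric means). The log2 change was -1.13 with all values below 95.1 set to 95.1, and -4.73 with background subtracted, the latter past the threshold in limma. With the floor at 95.1 the 4 later endothelial samples and all 13 AT2 samples were level. The floor thus fixed much of the spread in that fit, so the fit is no check on the call. Without EC P14 replicate 2 the change was -2.54 ± 0.41 (limma, adjusted p = 0.000947). Embryonic endothelial samples had 254 to 652, so the ranges of the 3 periods did not overlap.

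MIMAT0000374 was a low microRNA that passed out of the measurable range, in AT2 cells too. AT2 samples had 16.2 to 99.6 in the first week and 4.77 to 10.1 at P14 and P28. None of these later AT2 samples was above its limit. The AT2 log2 change was -2.03 ± 0.35 (limma, adjusted p = 0.000365). The difference, endothelial minus AT2 change, was -0.10 ± 0.53 (limma, adjusted p = 0.962). In endothelial cells MIMAT0000374 stood at 59.5 at P1, 77.5 and 52.2 at P7, 26.8 and 14.5 at P14, and 11.6 and 7.19 at P28. All 4 later samples were below their background limit. The fitted log2 change was -2.12 ± 0.40 (limma, adjusted p = 0.00298), and first-week cells had at least 1.41-fold more with the later samples set at their limits. Its signal is below 95.1 in all 7 samples, so the common floor leaves no difference to test. Its call also ended when EC P14 replicate 2, EC P28 replicate 2 and EC P1 replicate 1 were left out at once (log2 change -1.79, limma, adjusted p = 0.0726).

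**Figure D2:**
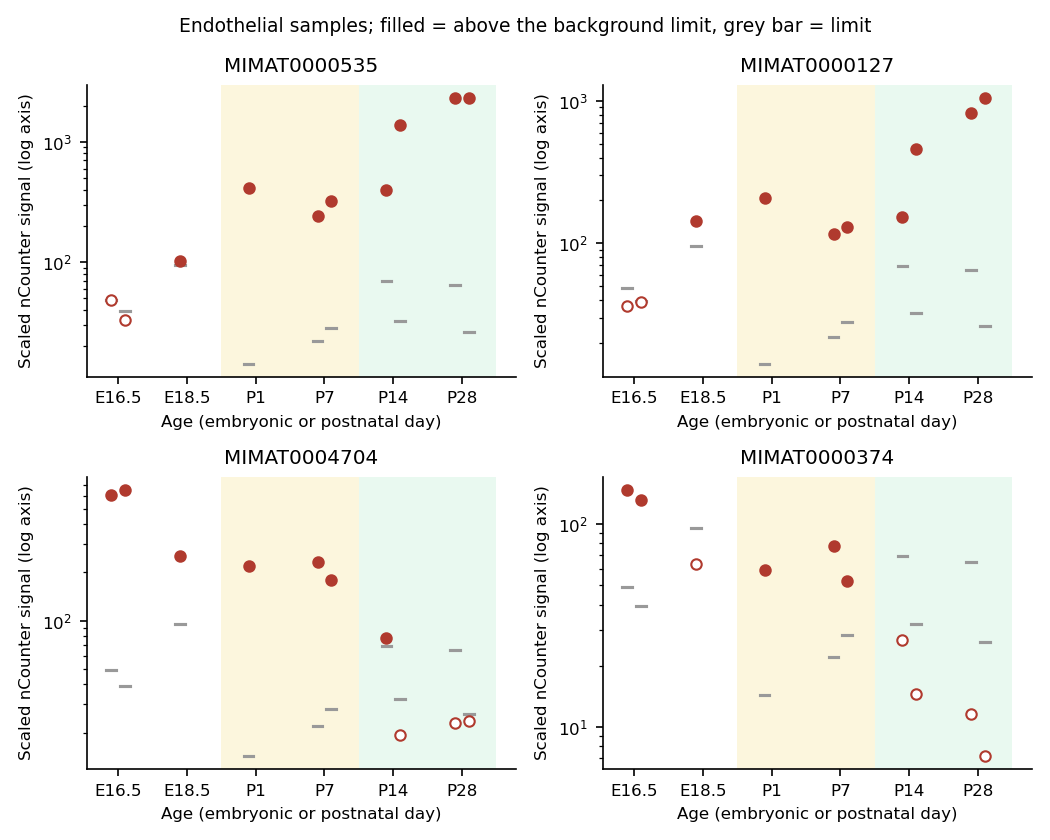
Points give the scaled nCounter signal (log axis) of 4 microRNAs in each endothelial sample by age, filled where the sample was above its background limit (grey bar). MIMAT0000535 reaches 2323 and 2307 at P28 from 243 to 414 in the first week, while MIMAT0004704 goes from 178 to 233 in the first week to 23.2 and 23.6 at P28.

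Samples were next compared one against another, since the 7-sample design is small. Among the tested microRNAs, 23 (7.62%) had each later sample above each first-week sample and 14 (4.64%) had each below. Exact permutation over the 35 splits of 4 against 3 samples cannot give a two-sided p below 0.0571. Of the 23 that lay higher, 8 were below the limit in all first-week samples and 9 were above it in all 7. Of the 14 that lay lower, all 14 were above the limit throughout the first week and 7 in all 7 samples. Among the 17 that changed, 5 of the 8 rises and 4 of the 9 falls had arms that did not overlap.

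The later samples departed from the first week by unequal amounts. Relative to the first-week mean, the 8 that rose had a median log2 difference of 0.88 in EC P14 replicate 1, 1.53 in EC P14 replicate 2, 2.18 in EC P28 replicate 1 and 1.55 in EC P28 replicate 2. For the 9 that fell the medians were -0.81, -1.09, -1.71 and -2.23 in the same order. EC P14 replicate 1 had the smallest median departure in both sets, with 3 of the 8 and 3 of the 9 still inside the first-week range. In EC P14 replicate 2 these numbers were 0 of the 8 and 3 of the 9. In EC P28 replicate 2 none was inside it. These medians describe microRNAs chosen on the same samples and carry no test.

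Leaving out EC P14 replicate 2 raised the number of calls and turned the sign of none of the 17. Without it 31 of 302 microRNAs changed (10.3%), 12 higher and 19 lower, and these included all 17 with their signs. Of the 14 gained, 4 were higher and 10 lower. The AT2-high microRNAs had a median log2 change of 0.80 in all 7 samples and 0.44 without this sample, beside 0.19 and 0.30 over all tested microRNAs. The EC-high microRNAs went from a median of 0.02, with 15 of 29 above 0, to 0.43, with 22 of 29 above 0. Without this sample both sets thus had nearly the same median. Among the 17 that changed, 2 were AT2-high, both lower at the later ages, and 2 were EC-high, 1 higher and 1 lower. The part of the AT2-high signal in the remaining changes was not tested.

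Other samples moved the count as well. It was 38 without EC P14 replicate 1, 11 without EC P1 replicate 1, 8 without EC P28 replicate 1, 9 without EC P28 replicate 2, and 8 without the 3 samples richest in AT2-high microRNAs, each of the last 8 being among the 17. Within specimen numbers beginning with 15 (2 P7 samples against 1 P14 and 1 P28) 11 changed, and within those beginning with 16 (1 P1 sample against 1 P14 and 1 P28) 18 changed. MIMAT0000535 had log2 changes of 1.78 and 2.11 in these sets, MIMAT0000127 had 1.53 and 1.74, and MIMAT0004704 had -2.23 and -3.30, each past the threshold in limma in both. MIMAT0000374 had -1.79 and -2.43, with an adjusted p of 0.0700 in the first set and 0.0284 in the second (limma).

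**Figure D3:**
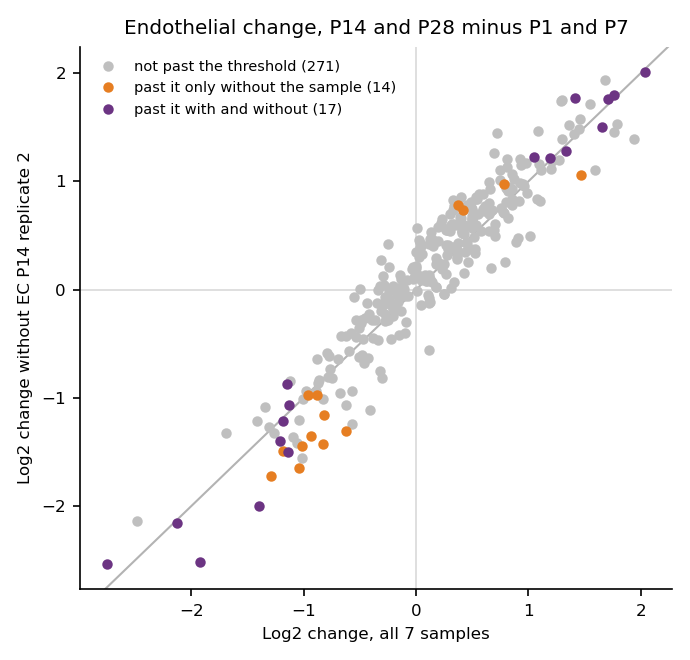
Each point is 1 of the 302 tested microRNAs, with the endothelial log2 change from all 7 samples on the horizontal axis and that without EC P14 replicate 2 on the vertical axis, and the line marks equal values. The 17 past the threshold with all samples (purple) are also past it without this sample, and 14 more (orange) pass it then.

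The background limit bears on which changes can be seen. With every value below 95.1 set to 95.1, 18 microRNAs changed (5.96%), 7 higher and 11 lower, of which 10 were among the 17. Under that floor 142 of the 302 tested microRNAs, and 2 of the 17, were level in all 7 samples. Samples set to the floor no longer differ, which can lower the spread that the fit uses. Counts of calls at this floor, here and below, are therefore a description. The number of microRNAs above a sample's own limit was 210 ± 20.1 in the first week and 158 ± 21.2 later (SD, n = 3 and 4), with no overlap (exact permutation test, two-sided, p = 0.0571, the smallest possible). At 1 limit of 95.1 for all samples the numbers were 110 ± 4.62 and 111.8 ± 7.41 (exact permutation test, p = 0.857). The lower number at the later ages was thus seen with sample-specific limits and not with a common one.

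The timing of the change was examined by stage. The moderated F-test of limma found 24 microRNAs that varied among P1, P7, P14 and P28 in endothelial cells (7.95%), 13 of them among the 17. The stage mean was highest at P1 for 13 of the 24, at P7 for 2, at P14 for 1 and at P28 for 8. It was lowest at P28 for 16, at P7 for 5, at P1 for 3 and at P14 for 0. The extremes of level thus lay mostly at the ends of the series, where P1 is a single sample. That sample, EC P1 replicate 1, had an AT2-high sum of 6581, against 1203 and 2325 in the P7 samples. The part of AT2-high signal in the P1 maxima was not tested.

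Between P7 and P14 no microRNA passed the threshold (0%; limma), with 43 at an unadjusted p under 0.05, and edgeR on the recovered counts also gave 0, with 51 unadjusted. Between P14 and P28, 8 microRNAs changed (2.65%; limma), 2 higher and 6 lower. The difference between these steps in the number of calls was not tested. Both steps rest on 2 samples a stage, and the P14 pair includes EC P14 replicate 2.

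MIMAT0000536 gave the larger of the 2 rises past the threshold between P14 and P28. From P1 to P14 it lay between 287 and 417, at 340 at P1, 287 and 357 at P7, and 379 and 417 at P14. It stood at 1899 and 1935 at P28, and at 103 to 302 in the embryonic endothelial samples. The 2 P14 samples, which differ widely in other microRNAs, were close for this one, and both P28 samples were above all others. The log2 difference of P28 from P14 was 2.27 ± 0.36 (limma, adjusted p = 0.00165), and 2.34 without EC P14 replicate 2. In AT2 cells it stood at 566 and 490 at P14 and at 1405 to 1933 at P28. The AT2 log2 change from the first week was 2.35 ± 0.24 (limma, adjusted p = 3.77e-06). In endothelial cells MIMAT0000536 was also among the 8 that rose from the first week, with arms that did not overlap. MIMAT0000127 was the other that rose between P14 and P28, by 1.80 ± 0.42 on the log2 scale (limma, adjusted p = 0.0325), a call that 3 of 5 alternatives did not make. The log2 difference was then 1.86 with a median shift (limma, adjusted p = 0.0611), 1.39 with quantile normalization (limma, adjusted p = 0.0665) and 1.45 by edgeR on the recovered counts (adjusted p = 0.175).

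The 6 falls between P14 and P28 did not pass the threshold without EC P14 replicate 2. MIMAT0000567 stood at 84.4 and 187 at P14 and at 15.4 and 29.8 at P28, and MIMAT0000747 at 94.7 and 230 at P14 and at 42.5 and 18.5 at P28. In each case the higher P14 value was that of EC P14 replicate 2, and at P28 only 1 of these 4 values was above its limit. The log2 differences were -2.49 ± 0.49 and -2.35 ± 0.48 (limma, adjusted p = 0.0114 and 0.0129). Without that sample they were -1.92 and -1.72 (limma, adjusted p = 0.156 and 0.169), and 4 microRNAs changed in all, 4 higher and 0 lower. MIMAT0000567 also fell from the first week, where it stood at 216 at P1 and at 98.3 and 127 at P7 (log2 change -1.39 ± 0.37, limma, adjusted p = 0.0352).

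AT2 cells of the same ages, 5 later and 4 first-week samples, show how far the change is shared with the neighbouring epithelium. In AT2 cells 45 microRNAs were higher (14.9%) and 42 lower (13.9%) at P14 and P28, by the same limma fit. Of the 17 that changed in endothelial cells, 12 changed the same way in AT2 cells, 6 up and 6 down, and 0 the opposite way, which is 70.6% of the endothelial list and 13.8% of the 87 in AT2 cells. Every endothelial sample of these ages except EC P14 replicate 1 carries the specimen number of an AT2 sample of the same age. The lists thus rest in large part on the same specimens. The 45 that rose in AT2 cells had a median log2 change of 0.50 in endothelial cells (0.70 without EC P14 replicate 2), and 42 of the 45 were above 0. The 42 that fell in AT2 cells had a median of -0.82 (-1.14 without EC P14 replicate 2), and 34 of the 42 were below 0. These stand beside the median of 0.19 over all tested microRNAs, of which 186 (61.6%) were above 0. Some of the 45, MIMAT0004855 and MIMAT0003499 among them, were above the background limit in no endothelial sample of these ages. In AT2 samples scaled background ran from 2.53 to 4.28 in the first week and from 4.05 to 8.20 at P14 and P28. The part of background in the shared rise was not tested.

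By sample, the AT2-falling list separated the P14 from the P28 endothelial samples. Its median log2 difference from the first-week mean was -0.38 in EC P14 replicate 1, 0.05 in EC P14 replicate 2, -1.17 in EC P28 replicate 1 and -1.66 in EC P28 replicate 2. For the AT2-rising list the medians were 0.33, 0.35, 0.84 and 0.47. The AT2-falling list was thus near its first-week level in EC P14 replicate 2, the sample with the highest AT2-high signal. The share of that signal in these medians was not tested.

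**Figure D4:**
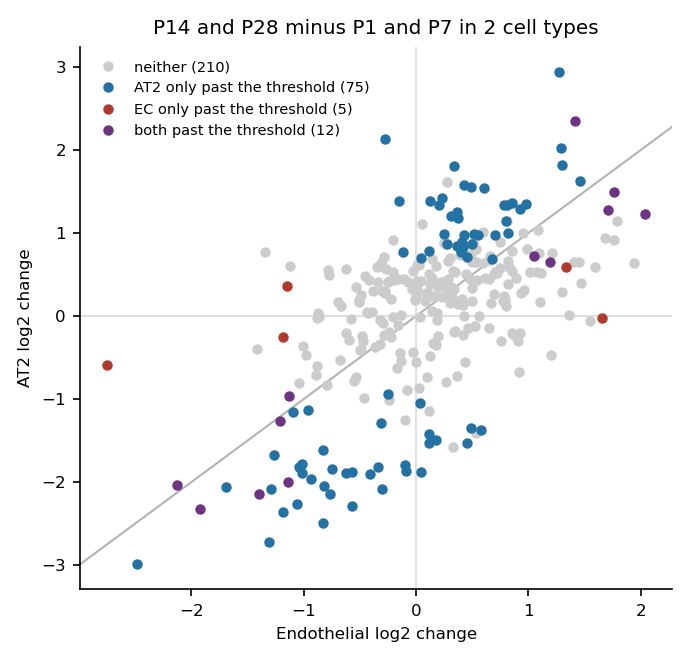
Each point is 1 of the 302 tested microRNAs, with the log2 change from P1 and P7 to P14 and P28 in endothelial cells on the horizontal axis and in AT2 cells on the vertical axis, and the line marks equal changes. The 12 microRNAs past the threshold in both cell types (purple) have the same sign in both.

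A direct test of endothelial against AT2 change passed the threshold for 1 of 302 microRNAs (0.331%, limma), with 44 at an unadjusted p under 0.05. In this test each arm is a mean over its samples, so the ages weigh differently in the 2 cell types. A difference with the ages weighted equally was not tested. With the specimen number that most endothelial and AT2 samples share as a random block, 12 passed, 5 with a positive and 7 with a negative difference. They included the 1 that passed without the block, MIMAT0000530. MIMAT0000530 stood in endothelial cells at 762 at P1, 1846 and 1564 at P7, 1163 and 1114 at P14, and 710 and 1448 at P28. In AT2 cells it stood at 389 and 621 at P1, 1346 and 1519 at P7, 1573 and 3772 at P14, and 4242, 5447 and 4936 at P28. The endothelial arms overlapped, with a log2 change of -0.28 ± 0.31 that did not pass the threshold, while all 5 later AT2 samples were above the 4 of the first week, with a change of 2.13 ± 0.27 (limma, adjusted p = 0.640 and 2.69e-05). The difference, endothelial minus AT2, was -2.41 ± 0.41 (limma, adjusted p = 0.00528). It lost its call without EC P7 replicate 1, where it was -2.16 (limma, adjusted p = 0.0704). MIMAT0004704, the largest endothelial fall, lay between 2.78 and 26.0 in all AT2 samples of these ages, and its difference in change was -2.16 ± 0.61 (limma, adjusted p = 0.110).

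**Figure D5:**
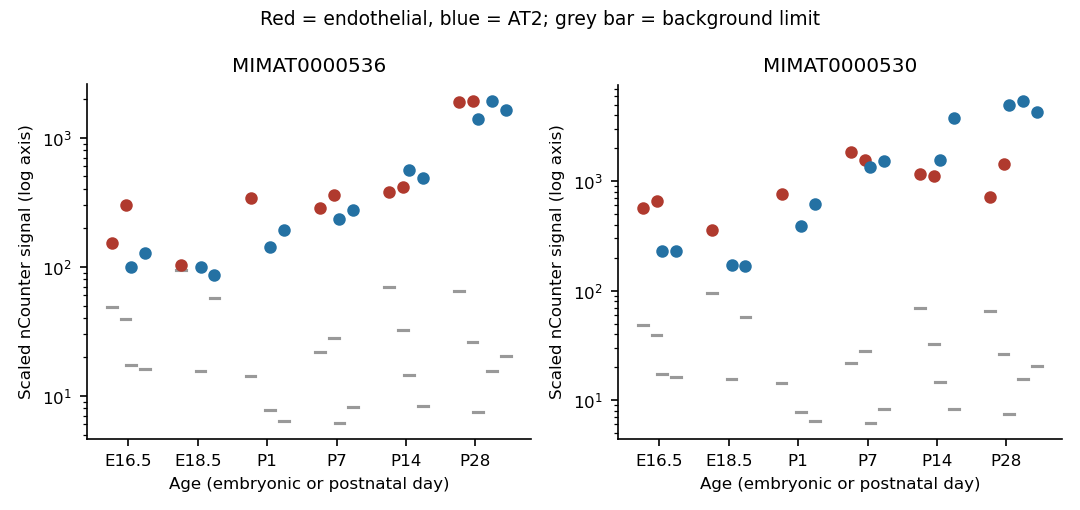
Points give the scaled nCounter signal (log axis) of MIMAT0000536 and MIMAT0000530 by age in endothelial (red) and AT2 (blue) samples, with each sample's background limit as a grey bar. MIMAT0000536 is highest at P28 in both cell types, and MIMAT0000530 reaches 4242 to 5447 at P28 in AT2 cells against 710 and 1448 in endothelial cells.

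The panel also reads 4 messenger RNAs. B2m, which encodes the light chain of class I major histocompatibility molecules (chromosome 2, 122147687 to 122153082, GRCm38.p6), stood at 99.3 at P1, 875 and 1281 at P7, 2405 and 346 at P14, and 5368 and 1854 at P28. Its low values were those of EC P1 replicate 1 and EC P14 replicate 2, and the arms overlapped through the latter alone. The log2 difference of the arms was 1.81, against 0.75 for Actb (cytoskeletal actin), 0.83 for Gapdh (a glycolytic enzyme) and 0.32 for Rpl19 (a ribosomal protein). None passed an exact two-sided permutation test (p = 0.286, 0.514, 0.343 and 0.514, adjusted p = 0.514 for each of the 4). Without EC P14 replicate 2 the differences were 2.58 for B2m, 1.27 for Actb, 1.02 for Gapdh and 0.43 for Rpl19 (exact permutation p = 0.10, the smallest that 3 against 3 samples allow, 0.30, 0.30 and 0.50).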

How the data were processed

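Total RNA of sorted lung cells was prepared with the nCounter mouse miRNA kit, per the labels' protocols. Of builds and tools, the submitters' processing notes list mm10 alone. How the authors normalized and treated background is not stated in the labels or file headers used here. The authors deposited a signal, counts times 1 factor per sample. All 14076 scaled values were whole multiples of their column's step within 0.1, or equal to 1 in a column with a step below 1. In such columns values under 1 appear to have been set to 1. Of the 7 samples, EC P1 replicate 1 had 9 values at 1 and EC P7 replicate 2 had 5. The factor multiplies background counts too, so for the same counts a larger factor gives a higher scaled background. How far low microRNAs shift with the factor was not tested. Columns were matched to samples by their descriptions.

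Limma 3.58.1 (R 4.3.3; lmFit, eBayes with trend) was fitted to log2(value + 1), which understates changes of low microRNAs, with 12 group means over 23 samples (11 residual degrees of freedom), so a stage of 1 sample takes its spread from the other groups. The change is the mean of the 4 later minus that of the 3 first-week samples. Two-sided p-values were adjusted (Benjamini-Hochberg) over the 302 tested. EdgeR 4.0.16 was run on the recovered counts as an alternative. The fits were also run on simulated counts. There most microRNAs were changed, the endothelial stages otherwise shared the same mean, and no sample stood apart. That setting differs from these data, so it is no check on the calls. Levels are means ± SD, changes ± SE. Precision is limited by the counts and by 1 or 2 endothelial samples a stage.

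Named microRNAs were to be those past the threshold with the largest changes, whose higher arm was above background in all samples but at most 1 and whose sign held without EC P14 replicate 2. As identifiers have no names here, 2 per direction were kept. The planned lists by microRNA name, including cell type markers, could not be matched and 0 were tested. MIMAT0000138 was included as the highest microRNA. Messenger RNA accessions matched a RefSeq table (4 of 4). The samples, lists and tests were chosen with earlier results of these data known. Alternatives changed the samples, scaling, filter, pseudocount, background, specimen number and model.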

Additional observations from a re-analysis of the deposited data

Results flagged for a closer look

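Among 21 groups of 4 or more samples examined for 1 value far from the rest, MIMAT0004704 in the 4 endothelial samples of P14 and P28 stood out: the gap between EC P14 replicate 1 (78.2) and the next sample was 0.858 of the range on the log2(value + 1) scale, above Dixon's critical value for 4 samples. Chance would give about 1 such group in 20. EC P14 replicate 1 was also the 1 of the 4 above its background limit for this microRNA, so the other 3 values have no measured order.

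In the main fit, with ages weighted by sample number, MIMAT0000530 alone passed the threshold in the direct test between cell types. Its difference was -2.41 (endothelial minus AT2, log2; limma, adjusted p = 0.00528), from a rise in AT2 cells of 2.13. With the specimen as a random block 12 microRNAs passed, this one included. It lost its call without EC P7 replicate 1, at a log2 difference of -2.16.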

How the results depend on the processing

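Specimen numbers pair most endothelial samples with AT2 samples but not the ages compared, so no paired fit of the endothelial change across ages was made. The count of 17 changed microRNAs ranged from 8 to 38 when 1 sample, or the 3 richest in AT2-high microRNAs together, was left out. It was 11 with P7 alone as the first week, 11 within specimen numbers beginning with 15, 4 with endothelial samples only, 0 with the 7 samples as 2 arms (limma, 46 at an unadjusted p under 0.05), 29 with quantile normalization, 2 as shares of the microRNA total, 69 without a filter, 45 with background subtracted and 27 by edgeR. It was 29 with the common floor and without EC P14 replicate 2, which was chosen after seeing the data. A median shift gave 14, 9 higher and 5 lower, and quantile normalization moved the median change of all tested microRNAs from 0.19 to 0.05. Without a filter 52 were higher and 17 lower, and with background subtracted 8 and 37. None of the 17 turned sign under these alternatives, and 2 were level at the common floor.

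The count of 1 for endothelial minus AT2 change ranged from 0 to 13 with 1 sample left out, and was 14 at the common floor, 12 with the specimen as a random block, 5 by edgeR, 20 with the floor and without EC P14 replicate 2, and 21 without those 3 samples. The last 3 were chosen after seeing the data. P28 minus P14 gave 4 without EC P14 replicate 2 and 5 at the common floor, in place of 8. P14 minus P7 gave 3 with quantile normalization and 4 at the common floor, in place of 0. The count that varied among stages stayed between 17 and 34.

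MIMAT0000535, MIMAT0000127, MIMAT0004704 and MIMAT0000374 lost their calls in the fit of 7 samples as 2 arms (limma, adjusted p = 0.203, 0.276, 0.0673 and 0.108). MIMAT0000535 and MIMAT0000127 also lost them as shares of the microRNA total, at log2 changes of 1.93 and 1.66 (limma, adjusted p = 0.130 and 0.1999), and MIMAT0000127 with endothelial samples only (limma, adjusted p = 0.0572). The cause was not tested. The number of microRNAs above background, later minus first week, went from -52.25 to 1.42 at 1 common limit, an alternative chosen after seeing the data. Changes under background limits of 14.4 to 69.7 are not measurable at this depth.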
